A study of Rattus norvegicus with 4 samples.

Results

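Transcripts of 10 tubulin isotypes were measured in INS-1 832/3 cells, an insulin-secreting rat insulinoma line, grown as a 2D monolayer or 3D-bioprinted in hydrogel. The isotypes were the 4 alpha-tubulins Tuba1a, Tuba1b, Tuba1c and Tuba4a and the 6 beta-tubulins Tubb2a, Tubb2b, Tubb3, Tubb4b, Tubb5 and Tubb6. They were taken by gene symbol from a list of alpha- and beta-tubulins, and all 10 were found among the 23360 gene symbols of the files. This list was chosen with earlier results of these data known. The 2D group was 2 standard monolayer cultures without a matrix, and the 3D group was 2 cultures of the same line printed in GelXA LAMININK 411, a laminin-containing bioink. By the study's methods, the printed gel was also crosslinked with ultraviolet light, a step without a counterpart in 2D, so printing, gel and light cannot be told apart here. All 4 cultures were harvested on day 5 at passage 3 and were described by the submitters as biological replicates. All carried the human insulin gene and the Geneticin resistance of the line, which is a single clone, so the comparison holds for this line and not for primary islet cells.

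Microtubules are hollow filaments built from dimers of 1 alpha- and 1 beta-tubulin. Mammals encode several isotypes of each, which are very similar in sequence except at their acidic tails, where many tubulin modifications are placed and many motors and binding proteins make contact. Dividing cells use the same dimers for the mitotic spindle. In beta cells, microtubules carry insulin granules and form a dense net beneath the plasma membrane from which granules are released or held back. The amount of tubulin mRNA is itself controlled by the amount of free tubulin protein, which triggers the decay of tubulin mRNA while it is being translated.

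Levels are given in scaled TPM, with means ± SD over 2 cultures. TPM are transcript abundances, corrected for transcript length by the authors, that sum to 1000000 in each culture. They were summed per gene symbol and divided by a scaling factor per culture. Fold changes are log2 differences, 3D minus 2D, of log2(TPM + 1), tested with limma over the 11960 genes with a mean of at least 1 TPM. The Benjamini-Hochberg adjusted p had to fall below 0.05. The added 1 shrinks the fold changes of genes with low TPM. TPM keeps no depth, so no counting error can be given. The beta-cell markers Ins1, Ins2, Iapp, Pdx1, Slc2a2 and Chga were above 100 scaled TPM in all 4 cultures, while Dcn and Lum (mesenchyme), Cdh5 and Emcn (endothelium) and Ptprc (leukocytes) were listed at 0. Other markers of those cells were low, with Pdgfra between 1.88 and 2.30, Kdr between 0.955 and 1.45 and Cd68 between 0.538 and 1.41 scaled TPM. Gcg, the glucagon gene of alpha cells, was at 41.5 and 76.9 in 2D and at 123 and 152 in 3D, higher in both 3D cultures. The other islet hormone genes were near 0. Sst was at 0.0851 and 0.0977 in 2D and at 0.233 and 0.198 in 3D. Ppy was at 0.136 and 0.312 in 2D and at 0 in both 3D cultures, and Ghrl was listed at 0. Whether the difference in Gcg bears on the tubulin levels was not tested.

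The promoters of the isotypes that carried most of the transcripts, and of Tuba4a, whose groups overlapped, are shown so that the genes behind the levels below can be compared. Tuba1a, Tuba1b and Tuba1c lie on rat chromosome 7, and Tubb2a and Tubb2b on chromosome 17. Each sequence is the 150 bases before the annotated start of the gene, from RefSeq on the GRCr8 assembly and not on the rn4 build that the authors used for quantification. Capitals mark a CCAAT box (CCAAT or ATTGG), a GC box (GGGCGG or CCGCCC) or a TATA motif (TATAA or TTATA), searched on both strands, and no 2 motifs overlapped.
Tuba1a, chr7:131995820-131995969, minus strand: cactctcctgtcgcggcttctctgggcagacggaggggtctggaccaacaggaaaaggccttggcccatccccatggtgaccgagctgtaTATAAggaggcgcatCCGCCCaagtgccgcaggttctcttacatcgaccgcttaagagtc
Tuba1b, chr7:131972588-131972737, minus strand: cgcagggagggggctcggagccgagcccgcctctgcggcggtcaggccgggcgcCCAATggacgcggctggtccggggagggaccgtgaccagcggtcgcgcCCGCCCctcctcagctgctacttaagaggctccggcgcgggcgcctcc
Tubb5, chr20:2917427-2917576, plus strand: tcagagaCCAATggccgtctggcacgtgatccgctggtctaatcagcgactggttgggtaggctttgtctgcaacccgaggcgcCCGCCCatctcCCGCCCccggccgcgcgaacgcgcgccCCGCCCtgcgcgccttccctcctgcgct
Tubb4b, chr3:28438456-28438605, minus strand: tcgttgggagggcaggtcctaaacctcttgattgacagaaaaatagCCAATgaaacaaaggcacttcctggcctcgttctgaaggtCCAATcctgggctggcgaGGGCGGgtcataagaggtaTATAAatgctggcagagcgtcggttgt
Tuba4a, chr9:84162585-84162734, minus strand: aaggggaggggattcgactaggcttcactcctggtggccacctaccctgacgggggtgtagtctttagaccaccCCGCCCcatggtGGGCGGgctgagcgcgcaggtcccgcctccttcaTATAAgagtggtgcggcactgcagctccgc

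All 10 isotypes matched a promoter. A GC box stood in 9 of the 10, against 26.0% of 33469 rat promoters of the same length. A CCAAT box stood in 6 of the 10, against 23.5%, and a TATA motif in 6 of the 10, against 15.2%. Of the promoters shown, Tuba1b, Tubb5 and Tubb4b held a CCAAT box, whereas Tuba1a and Tuba4a held none in this window. Such matches describe letters and not sites at which a factor was measured.

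The abundant tubulin isotypes were lower in bioprinted cells, and the means of those called were 19.9% to 29.7% lower than in 2D. Of the 9 isotypes that passed the filter, 7 fell, 0 rose and 2 did not pass the test, while Tubb2b was too low to be tested. Across all genes tested, 38% were called in either direction, 19.5% as lower and 18.5% as higher. The median log2 fold change of the 9 tested isotypes was -0.44, beside -0.003 over all genes. Both 3D cultures were below both 2D cultures for 8 of the 9, a pattern found for 38.2% of all genes tested. More abundant genes leaned lower. With the filter at a mean of at least 5 TPM, 2291 of 9498 genes were called lower and 1871 higher, with a median of -0.025. In bulk RNA, fewer cells of a kind and less RNA per cell cannot be told apart. All 7 calls were kept with each of 3 other scalings between cultures, but none was kept when 3D replicate 1 or 3D replicate 2 was left out. With either left out, only 1 culture was left in the 3D group, and most calls over all genes were lost too. Lost calls, here and in the lists below, are therefore not particular to these genes. The log2 changes of these 7 then ran from -0.53 (Tubb5) to -0.34 (Tubb2a) without 3D replicate 1. Without 3D replicate 2 they ran from -0.48 to -0.29, for the same isotypes at either end.

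**Figure D1:**
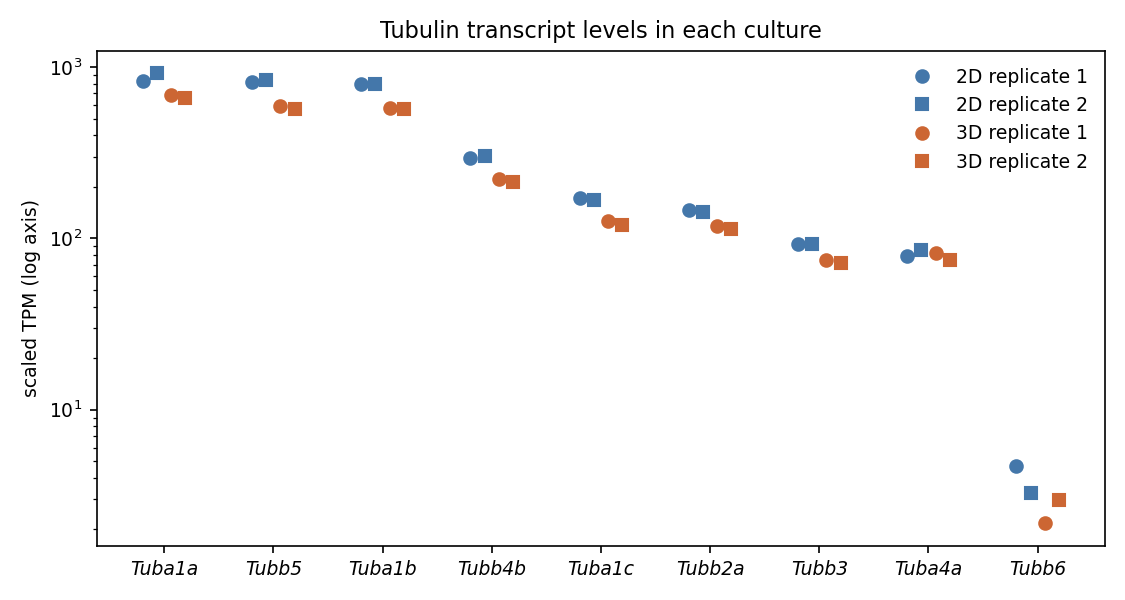
Scaled TPM on a log axis of the 9 isotypes above the filter in each culture, ordered by their mean in 2D (blue, 2D; orange, 3D; circles, replicate 1; squares, replicate 2; no error bars). The orange points lie below the blue ones for every isotype except Tuba4a, and Tubb2b, listed at 0 in 3 cultures, is not drawn.

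Among the alpha-tubulins, Tuba1a and Tuba1b were the abundant forms. Tuba1a, a major alpha-tubulin of developing neurons, was at 829 and 919 scaled TPM in 2D and at 684 and 662 in 3D. Both 3D cultures lay below both 2D cultures, although the 2D cultures differed more from each other than they did for other abundant isotypes (874 ± 63.6 and 673 ± 15.2). Tuba1a fell by 0.37 on the log2 scale (SE 0.072, limma, Benjamini-Hochberg adjusted p = 0.0148). Tuba1b, an alpha-tubulin made in most tissues, was at 797 and 799 scaled TPM in 2D and at 576 and 568 in 3D. The cultures of a group were nearly equal and the groups were well apart. Tuba1b fell by 0.48 (SE 0.055, limma adjusted p = 0.00515), which corresponds to 28.3% less TPM.

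Tuba1c, the third gene of the same chromosomal cluster and also broadly expressed, was less abundant, at 172 and 167 scaled TPM in 2D and 126 and 119 in 3D. Its groups did not overlap, and its log2 change of -0.46 (SE 0.057, limma adjusted p = 0.00560) was close to that of Tuba1b. Tuba4a, whose gene does not encode the C-terminal tyrosine of the other alpha-tubulins, was at 78.9 and 85.7 scaled TPM in 2D and at 82.2 and 74.7 in 3D. Here the groups overlapped. The log2 change was -0.07 (SE 0.074, 95% confidence interval -0.25 to 0.12, limma adjusted p = 0.484), and the lower end of the interval lies above the estimates for the Tuba1 genes.

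Among the beta-tubulins, Tubb5, the common class I form that is abundant in proliferating cells, was highest. It stood at 817 and 840 scaled TPM in 2D and at 593 and 571 in 3D. Each 3D culture lay far below each 2D culture, and the mean was 29.7% lower. The log2 change of Tubb5 was -0.51 (SE 0.058, limma adjusted p = 0.00515). Tubb4b, a widely expressed class IV form, was at 293 and 300.3 scaled TPM in 2D and 223 and 213 in 3D. The groups did not overlap, and Tubb4b fell by 0.44 (SE 0.055, limma adjusted p = 0.00577).

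The beta-tubulins best known from neurons were less abundant. Tubb2a, a class II beta-tubulin, was at 146 and 143 scaled TPM in 2D and at 118 and 114 in 3D. The groups were separate, with a log2 change of -0.32 (SE 0.053, limma adjusted p = 0.0102). Tubb3, the class III form used as a neuronal marker, was at 92.6 and 93.0 scaled TPM in 2D and at 74.3 and 72.2 in 3D. The cultures of each group were close together, and Tubb3 fell by 0.34 (SE 0.052, limma adjusted p = 0.00895). The 4 other neuronal markers checked did not share a direction. Snap25, which beta cells also use for exocytosis (94.7 and 103 scaled TPM in 2D, 141 and 134 in 3D), and Rbfox3 (3.14 and 4.58, 8.60 and 6.51) were higher in both 3D cultures. Syt1 was lower in both (7.06 and 4.66, 2.21 and 2.71), and Elavl4 was nearly level (12.2 and 12.5, 12.7 and 13.5).

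The last 2 beta-tubulins were at the bottom of the range. Tubb6, the class V form, was at 4.68 and 3.27 scaled TPM in 2D and at 2.18 and 2.97 in 3D. The groups did not overlap, but the cultures within each varied widely, and the log2 change of -0.47 (SE 0.18, 95% confidence interval -0.93 to -0.01) did not pass the test (limma adjusted p = 0.0918). Tubb2b was listed at 0 in 3 cultures and at 0.164 scaled TPM in 3D replicate 2. Tubb2a and Tubb2b are near-identical neighbours on chromosome 17, and the gene annotation lists the name of one as a synonym of the other. How reads were divided between such close copies, including the Tuba1 genes, was decided by the quantification and was not tested.

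**Figure D2:**
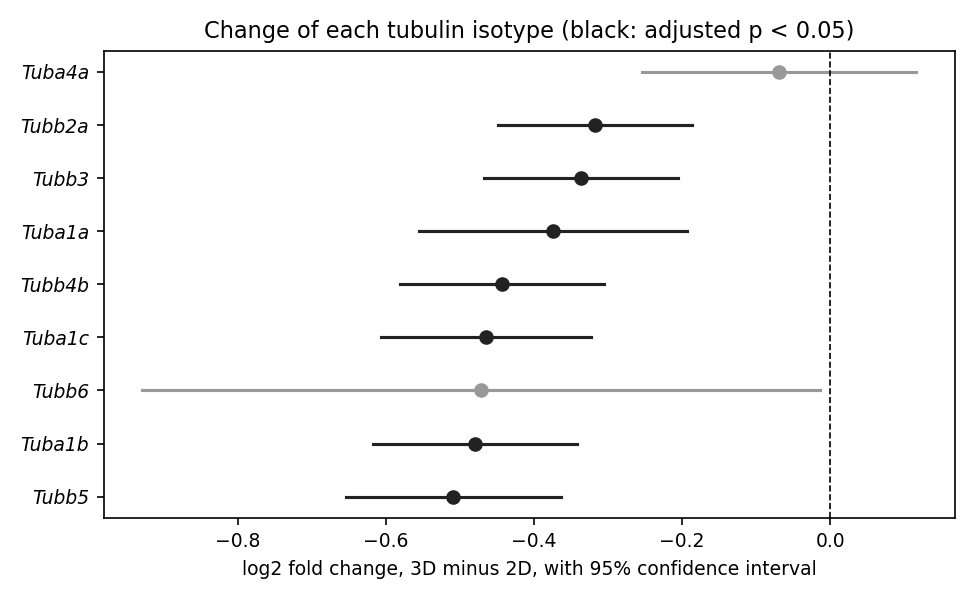
Log2 fold change, 3D minus 2D, of the 9 isotypes tested, with 95% confidence intervals from limma (black, adjusted p below 0.05; grey, not called). The intervals of the 7 called isotypes lie below 0, that of Tuba4a spans 0, and that of Tubb6 is the widest.

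The order of the isotypes was nearly the same in both culture forms. In 2D the means ran from Tuba1a through Tubb5, Tuba1b, Tubb4b, Tuba1c, Tubb2a, Tubb3 and Tuba4a to Tubb6 and Tubb2b, and only the ranges of Tuba1a and Tubb5 overlapped between neighbours. In 3D, Tuba4a (78.4 ± 5.29 scaled TPM) stood above Tubb3 (73.3 ± 1.47), the reverse of their order in 2D, and the neighbours whose ranges overlapped were Tubb5 and Tuba1b. These are comparisons of length-corrected levels between genes.

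Summed over isotypes, the transcripts of both subunits of the dimer were lower to a similar degree. Tubulin protein was not measured. The 4 alpha-tubulins together were at 1877 and 1970 scaled TPM in 2D and at 1468 and 1424 in 3D. The 6 beta-tubulins together were at 1353 and 1380 in 2D and at 1009 and 974 in 3D. Neither sum overlapped between groups, with a mean change of -24.8% for alpha and -27.4% for beta. An exact permutation test gave a two-sided p of 0.333 for each sum, the smallest that 2 cultures against 2 allow. All 10 isotypes made up 0.326% and 0.322% of the deposited TPM in 2D and 0.250% and 0.245% in 3D, a measure that uses no scaling between cultures. The ratio of summed alpha to summed beta was 1.39 and 1.43 in 2D and 1.45 and 1.46 in 3D, higher in both 3D cultures, with means 3.62% apart.

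The mix within each class differed little, with differences in mean share between -1.94 percentage points for Tuba1b and 1.15 for Tuba1a. Shares are percentages of the summed TPM of the 4 alpha- or 6 beta-tubulins as deposited. Tuba4a supplied 4.21% and 4.35% of the alpha-tubulin TPM in 2D and 5.60% and 5.25% in 3D. Both 3D cultures were higher, as they were for the ratio of Tuba4a to Tuba1a (0.0952 and 0.0933 in 2D, 0.120 and 0.113 in 3D), for which the exact permutation test gave a two-sided p of 0.333. Tuba1b supplied 42.5% and 40.5% in 2D and 39.3% and 39.9% in 3D, lower in both 3D cultures. Its mean difference of -1.94 percentage points was -0.98 without 2D replicate 1, -2.91 without 2D replicate 2 and -0.79 as a share of all 10 isotypes. The shares of Tuba1a (44.2% and 46.6% in 2D, 46.6% and 46.5% in 3D) and Tuba1c (between 8.38% and 9.17%) overlapped between the groups, and without 2D replicate 1 the difference in the Tuba1a share was -0.092 percentage points in place of 1.15.

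Within the beta class, Tubb5 supplied 60.4% and 60.9% in 2D and 58.7% in each 3D culture. Its share was lower in 3D, with a mean difference of -1.94 percentage points that shrank to -0.28 when only the most abundant transcript of each gene was counted. The shares of Tubb2a, Tubb3 and Tubb4b were higher in 3D. Tubb2a went from 10.8% and 10.4% to 11.7% in each 3D culture. Tubb3 went from 6.84% and 6.74% to 7.36% and 7.42%. Tubb4b moved least of the 4 beta shares whose groups did not overlap, from 21.6% and 21.8% to 22.0% and 21.9%, and as a share of all 10 isotypes its difference was -0.082 percentage points. The shares of Tubb6, between 0.216% and 0.346%, overlapped. For each share whose groups did not overlap, the exact permutation test gave a two-sided p of 0.333, its minimum, and 0.556 after Benjamini-Hochberg adjustment over the 10 shares. Shares of a class sum to a fixed total, so a lower share of one isotype entails a higher share of others.

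**Figure D3:**
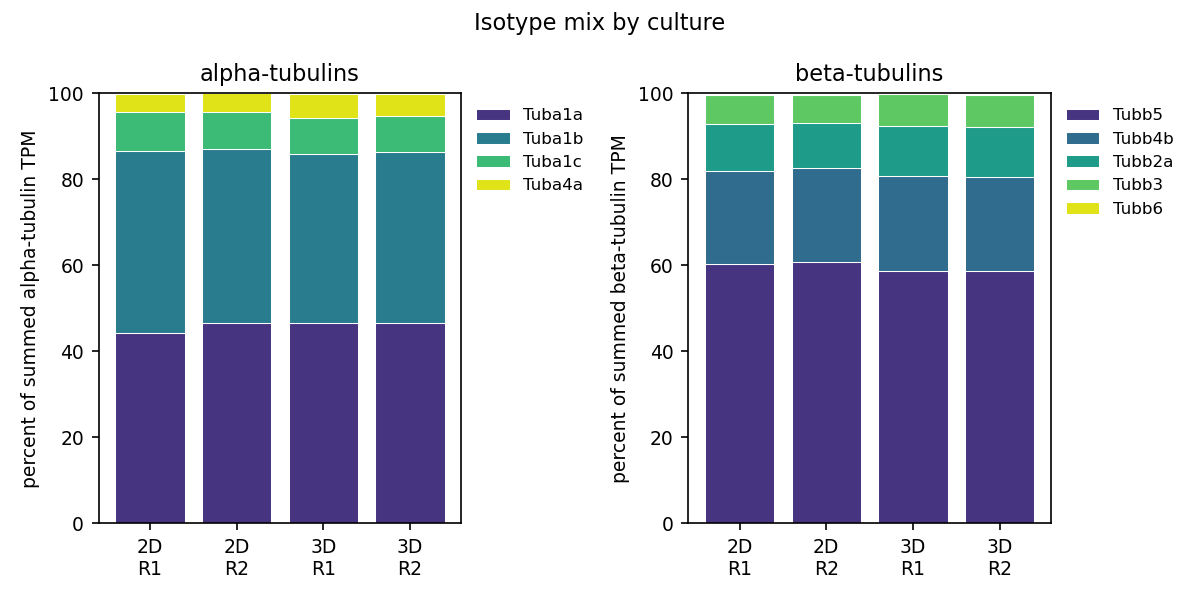
Percentage of the summed alpha-tubulin TPM (left) and beta-tubulin TPM (right) supplied by each isotype in each culture (R1 and R2, replicates 1 and 2). Tuba1a and Tuba1b fill most of the alpha bars and Tubb5 most of the beta bars in all 4 cultures, with a wider Tuba4a band and a shorter Tubb5 band in 3D; Tubb6 is too small to see and Tubb2b is not drawn.

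Of the tested isotypes, Tubb5 and Tubb2a were represented by 2 transcripts each and the others by 1. Transcripts were scaled and tested in a separate limma fit over 15020 transcripts, of which 12.7% were called as lower. Tubb5 transcript ENSRNOT00000079854.1 was at 690 and 695 scaled TPM in 2D and at 509 and 487 in 3D (log2 change -0.48, limma adjusted p = 0.0176). The second, ENSRNOT00000084917.1, was at 131 and 152 in 2D and at 80.2 and 80.7 in 3D (log2 change -0.80, limma adjusted p = 0.0174). Both fell, and the second supplied 15.9% and 17.9% of Tubb5 in 2D and 13.6% and 14.2% in 3D.

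For Tubb2a, transcript ENSRNOT00000086264.1 fell from 110 and 122 scaled TPM in 2D to 78.3 and 82.0 in 3D (log2 change -0.53, limma adjusted p = 0.0200). ENSRNOT00000023611.6 was at 36.4 and 22.4 in 2D and at 38.6 and 31.2 in 3D, where the groups overlapped (log2 change 0.27, limma adjusted p = 0.455). Counting only the most abundant transcript of each gene turned the rise in the Tubb2a share into a difference of -0.41 percentage points. Division of reads between transcripts of a gene is an estimate, and its error is not in the deposited values.

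Genes that surround the tubulins were read from lists by role. These lists too were chosen with earlier results of these data known, so their counts describe and do not test. Of 8 other tubulins, Tuba3a, Tuba3b, Tuba8, Tubal3 and Tubb1 were below the filter. The 3 tested were called lower, beside 19.5% over all genes. Tubb4a, a beta-tubulin of brain, was at 72.4 and 74.4 scaled TPM in 2D and at 65.3 and 61.6 in 3D (log2 change -0.21, limma adjusted p = 0.0396). This level was like that of Tubb3, and with Tubb4a counted among the beta-tubulins the Tubb5 share differed by -2.37 percentage points. Delta-tubulin Tubd1 (-0.56, limma adjusted p = 0.0217) and epsilon-tubulin Tube1 (-0.29, limma adjusted p = 0.0310), which serve centrioles, were low at under 10 scaled TPM. Only 1 of these 3 calls was left without scaling, and 0 without the filter on low values. When either 3D culture was left out they were lost, as were most calls over all genes.

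Prefoldin and the chaperonin ring TRiC fold new tubulin and actin, and tubulin cofactors then assemble the dimer. Of 21 such genes, 14 fell (66.7%, beside 19.5% over all genes), 0 rose and 7 did not pass, with a median log2 change of -0.28. The chaperonin subunits Cct7 (-0.33, limma adjusted p = 0.00927) and Cct3 (-0.32, limma adjusted p = 0.00977) and the prefoldin subunit Pfdn5 (-0.40, limma adjusted p = 0.00986) had the smallest p. For Cct7 the cultures were at 288 and 291 scaled TPM in 2D and at 233 and 226 in 3D. The calls were lost without 3D replicate 1 or without 3D replicate 2, as for the tubulins and for most genes called.

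Of 10 genes of microtubule nucleation, 3 fell and 1 rose, near the 38% called over all genes. Gamma-tubulin Tubg1, which forms the ring on which a microtubule starts, was at 81.2 and 83.1 scaled TPM in 2D and at 59.8 and 58.4 in 3D. It fell by 0.47 (SE 0.053, limma adjusted p = 0.00505), a change of the size seen for Tuba1b. Mzt2b, a small ring component (-0.40, limma adjusted p = 0.0164), and Nedd1, which brings the ring to the centrosome (-0.42, limma adjusted p = 0.0292), also fell. The median over the list was -0.08. The calls of a fall were lost without 3D replicate 1, and most were lost without 3D replicate 2, as over all genes. The 1 gene that rose was not called without scaling.

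The factors known to act in tubulin mRNA decay did not share a direction. Ttc5, which recognizes tubulin chains as they leave the ribosome, was at 21.1 and 22.4 scaled TPM in 2D and at 16.2 and 18.4 in 3D (log2 change -0.32, limma adjusted p = 0.0326). Scaper, an adaptor between Ttc5 and the deadenylase, was at 3.71 and 3.28 in 2D and at 4.85 and 4.73 in 3D (log2 change 0.37, limma adjusted p = 0.0341). Cnot11, the deadenylase subunit that Scaper binds, had a log2 change of -0.05 (limma adjusted p = 0.625). Neither call was kept without the filter on low values, that of Ttc5 was lost without scaling and with any 1 culture left out, and that of Scaper without 2D replicate 2 or either 3D culture.

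Tubulin-modifying enzymes went both ways. Of 16 tested out of 23 listed, 4 fell, 4 rose and 8 did not pass, so 50% were called beside 38% over all genes. Agtpbp1, which removes glutamates from tubulin tails, rose from 50.7 and 48.3 scaled TPM to 78.6 and 69.5 (log2 change 0.57, limma adjusted p = 0.00664). Ttll3, a glycylase (0.73, limma adjusted p = 0.00725), rose and Ttll1, a glutamylase (-0.70, limma adjusted p = 0.00693), fell. Both are low, at 2.71 to 5.60 scaled TPM for Ttll3 and 5.87 to 11.3 for Ttll1. The count of falls was 2 without scaling. The calls in both directions were lost without 3D replicate 1, as most were over all genes.

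Microtubule-binding proteins and motors held genes that fell and genes that rose. Of 28 tested binding proteins, 10 fell (35.7%) and 4 rose, with a median log2 change of -0.10. Stmn3, a stathmin that binds free dimers, was at 170 and 177 scaled TPM in 2D and at 138 and 132 in 3D (log2 change -0.36, limma adjusted p = 0.00928). Map7, which recruits kinesin-1 to microtubules, rose (0.49, limma adjusted p = 0.00790) and its relative Map7d1 fell (-0.32, limma adjusted p = 0.0120). Of 30 motor genes, 7 fell, 1 rose and 22 did not pass, with a median of -0.06. The 23.3% of motor genes that fell were near the 19.5% over all genes, and the 26.7% called in either direction were below the 38% over all genes. The falls with the smallest p were in the dynein chains Dynlt1 (-0.66, limma adjusted p = 0.00409), Dync1i1 (-0.92, limma adjusted p = 0.00418) and Dynll1 (-0.59, limma adjusted p = 0.00458). Dynll1 and Dynlt1 were abundant, at 556 and 598 and at 324 and 350 scaled TPM in 2D. The calls of both lists were lost without 3D replicate 1, as most were over all genes.

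**Figure D4:**
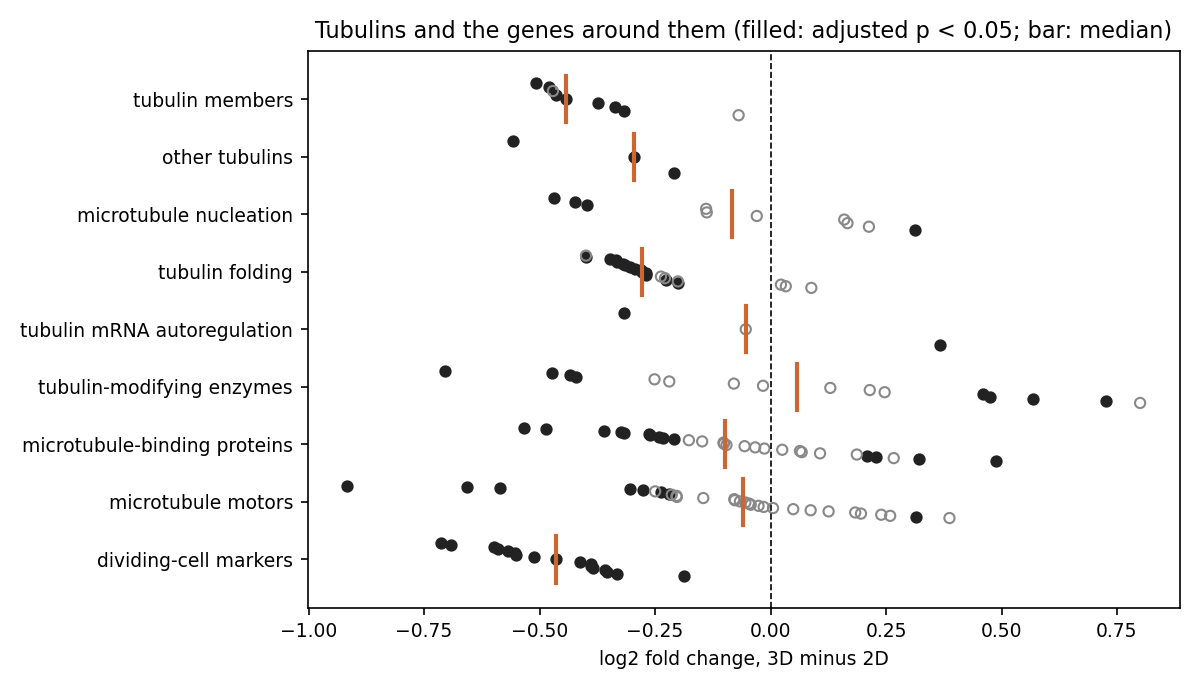
Log2 fold change, 3D minus 2D, of every tested gene of the isotypes and of 8 lists (filled, limma adjusted p below 0.05; open, not called; orange bar, median of the list; vertical spread within a list only separates the points). The isotypes, the folding factors and the dividing-cell markers lie mostly below 0, while modifying enzymes, binding proteins and motors spread to both sides.

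Markers of dividing cells moved with the tubulins. Of 18 listed, 17 were found and tested and all 17 fell, beside 19.5% of all genes tested. The median log2 change of the 17 was -0.46. Cdc20 (-0.71, limma adjusted p = 0.00409), which activates the anaphase-promoting complex, Aurkb (-0.57, limma adjusted p = 0.00409), the chromosomal passenger kinase, and the spindle factor Tpx2 (-0.60, limma adjusted p = 0.00420) had the smallest p. Their summed level was 1412 and 1452 scaled TPM in 2D and 1024 and 1043 in 3D. The ratio of the 10 tubulins to this sum was 2.29 and 2.31 in 2D and 2.42 and 2.30 in 3D, so the groups overlapped on it. Whether the share of dividing cells had a part in the tubulin levels was not tested. These calls were lost without 3D replicate 1, and most were lost without 3D replicate 2, as over all genes.

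Of 7594 other genes with a mean of at least 10 TPM, those whose pattern over the 4 cultures was closest to the summed isotypes were Gon7, Zbed5 and Tmem109. The root mean square difference of their centred log2 levels from that of the sum was 0.0076, 0.00928 and 0.0105. Tmem109 was at 272 ± 3.75 scaled TPM in 2D and 203 ± 3.52 in 3D. With 4 cultures in 2 groups, such likeness can come from a fall of the same size alone.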

How the data were processed

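Messenger RNA of 2 monolayer and 2 bioprinted INS-1 cultures was sequenced from stranded libraries. The authors quantified single-end reads per transcript with Salmon 1.2 on rn4 with the human insulin gene added, checked them with FastQC 0.11.8, and deposited TPM, which sum to 1000000 per culture and keep no depth. The deposited values write decimal commas and were entered as another unit in the check of units.

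TPM were summed per gene symbol. Scaling was an unweighted trimmed mean of M values (30% of M, 5% of A) over genes with a mean of at least 1 TPM, with factors from 0.960 to 1.02. These 11960 genes were tested with limma 3.58.1 (R 4.3.3) on log2(TPM + 1) with an intensity trend and Benjamini-Hochberg adjustment. Sums and shares had exact two-sided permutation tests. The steps were run on simulated data in which far fewer genes changed than were called here. That run does not give the error rate of these calls. The count-based test in the methods of the study needs counts, which TPM do not carry, and was not repeated.

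Members and lists were chosen with earlier results of these data known. Named were all isotypes, the 3 genes of smallest p of each list, every gene of lists with up to 5 members, and the 3 genes most alike. Groups and replicate numbers came from the labels. Alternatives were the scaling, filter, pseudocount, replicate block, empirical Bayes options, transcript choice, threshold, share denominator and each culture left out.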

Additional observations from a re-analysis of the deposited data

How the results depend on the processing

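Of the alternatives, leaving out a culture moved the calls most. The number of genes called, 4541 with all cultures, ranged from 136 to 4515, and the number of isotypes called, 7 with all cultures, from 0 to 7. The isotype calls were lost without 3D replicate 1 or 3D replicate 2, at limma adjusted p between 0.050 and 0.104, and the sign of each of the 7 fold changes was kept under all 15 alternatives. A fit that leaves 1 culture in a group assumes that it varies like the others. At an adjusted p below 0.01, 1418 genes and 5 isotypes were called by limma. The deviations of same-numbered cultures were not correlated (-0.006 over 11960 genes), which cannot show that a shared replicate effect is absent. The replicate block gave 4814 genes and 7 isotypes. Without scaling, 55.5% of the called genes were higher in 3D, and with factors from all genes, an alternative chosen after seeing the data, 41.3%, beside 48.7%.

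With a culture left out, the log2 change of Tuba4a ranged from -0.14 to 0.0012 and that of Cnot11 from -0.13 to 0.022. Differences in share ranged from -0.092 to 2.39 percentage points for Tuba1a, from -2.91 to -0.98 for Tuba1b, from -0.693 to 0.00010 for Tuba1c, from 0 to 0.017 for Tubb2b and from -0.086 to 0.024 for Tubb6. The Tubb2a share differed by -0.41 with the most abundant transcript alone, and the Tubb4b share by -0.082 as a share of all 10 isotypes. Without a reversal, the Tubb5 share differed by -0.28 with the most abundant transcript alone. The cause of these reversals was not tested. Counting Tubb4a in the beta class, also chosen after seeing the data, kept the direction of every beta share. Of 240 list counts under an alternative, 184 stayed within 1.5 times, and 37 of the other 56 came from a culture left out.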
